A study of Mus musculus with 23 samples.

Results

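The replication-dependent histone genes of mouse embryonic stem cells (ESCs) were followed in RNA-seq and ChIP-seq data collected around the zinc finger factor Zbtb11. Genes were chosen by symbol: every gene of the mouse GENCODE vM1 annotation whose name starts with Hist1h, Hist2h, Hist3h or Hist4h and that had more than 1 CPM (reads per 1000000 reads on genes) in at least 3 of the 9 RNA-seq libraries. This kept 60 of 70 such genes, among 14346 genes that passed the same filter and 37310 gene identifiers in all. They comprised 6 of 6 linker histone H1 genes, 14 of 20 H2A, 16 of 19 H2B, 12 of 12 H3 and 12 of 13 H4 genes. Among them, Hist3h2bb-ps and Hist2h3c2 are annotated as pseudogenes.

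RNA was taken 48 h after treatment from 3 groups of E14 ESCs with 3 replicates each. The EtOH control was Zbtb11lox/lox Rosa26 ERt2-Cre cells given ethanol, the vehicle. The Zbtb11 KO was the same line given 250 nM 4-hydroxytamoxifen (4OHT), which activates the ERt2-Cre recombinase made from the Rosa26 locus and so deletes the floxed part of Zbtb11. The 4OHT control was Zbtb11WT/WT Rosa26WT cells given 250 nM 4OHT, so both genotype and treatment set it apart from the EtOH control. The Zbtb11lox/lox ERt2-Cre and Zbtb11FLAG/FLAG lines were made from E14 by genome editing and isolated as colonies, and E14 itself carries neither edit. ChIP-seq comprised 4 libraries with an antibody to Zbtb11 in wild-type cells and 3 with an antibody to FLAG in Zbtb11FLAG/FLAG cells, with 2 FLAG libraries in untagged wild-type cells as control. Nothing in the labels ties replicates to separate animals or donors, since all are cultures of a cell line, and p-values measure the spread between these cultures.

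Replication-dependent histones are made in bulk during S phase, when newly replicated DNA is packed into nucleosomes of H2A, H2B, H3 and H4, with H1 bound to the linker DNA. Their genes lie in clusters, lack introns for the most part, and exist in many near-identical copies. Their mRNAs are the only metazoan mRNAs known to end without a poly(A) tail: the 3′ end is formed at a conserved stem-loop that is bound by the stem-loop binding protein SLBP. The libraries were made from total RNA after removal of ribosomal RNA, without poly(A) selection, so that these mRNAs can be read. ESCs cycle fast and spend much of the cycle in S phase.

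The stem-loop identified the members almost without exception. A 16-base palindromic stem-loop with the pattern GGNNNTNNTNANNNCC, in which the first 6 bases are the reverse complement of the last 6, was searched on the sense strand within 150 bases after the annotated stop codon. It was found in 55 of 58 members with a stop codon (94.8%) and in 3 of 13259 other tested genes (0.0226%). Its first base lay 22 to 56 bases after the stop codon, with a median of 31. The letters split the members by class. All 12 H4 genes had stems that begin GGCCCT or GGTCCT, and the 43 other members with a stem-loop had GGCTCT. The commonest form, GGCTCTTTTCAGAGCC, stood in 33 members: 5 H1, 11 H2A, 10 H2B and 7 H3. The form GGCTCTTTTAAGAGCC stood in 8 (1 H1, 4 H2B and 3 H3) and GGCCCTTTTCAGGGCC in 7 H4 genes. The following stretches of 30 bases, read from the mm9 genome and written 5′ to 3′ in the sense of the mRNA, show the 8 forms found, with the 16 bases of the stem-loop in capitals. H2afx, which the gene lists used here place among the replication-independent variants, is shown because it was 1 of the 3 other tested genes with a match.
Hist1h1a (chr13:23856254-23856283, plus strand): acccaacGGCTCTTTTCAGAGCCaccaaca
Hist1h1t (chr13:23788387-23788416, plus strand): acccaaaGGCTCTTTTAAGAGCCacttaca
Hist2h2ac (chr3:96024334-96024363, minus strand): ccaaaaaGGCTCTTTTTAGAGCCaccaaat
Hist1h3g (chr13:23627751-23627780, plus strand): ctttaaaGGCTCTTCTTAGAGCCacccatc
Hist1h4d (chr13:23673812-23673841, plus strand): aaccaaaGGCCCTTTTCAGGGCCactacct
Hist1h4i (chr13:22132828-22132857, minus strand): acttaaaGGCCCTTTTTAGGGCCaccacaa
Hist1h4j (chr13:21827299-21827328, plus strand): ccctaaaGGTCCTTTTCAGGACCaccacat
Hist1h4a (chr13:23852662-23852691, minus strand): aaccaaaGGCCCTTCTCAGGGCCgcccaca
H2afx (chr9:44143316-44143345, plus strand): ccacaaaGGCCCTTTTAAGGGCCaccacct

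H2afx encodes H2A.X, the variant phosphorylated at DNA breaks, and it carried an H4-like stem. The other 2 matches were in Bap1 and Ttc14. Among members with a stop codon, Hist2h2bb, Hist1h2an and Hist1h2al had no match in this window, which says only that these letters are not there.

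The promoters of the members shared a set of motifs that differed by class. Promoters were taken as 250 bases before to 50 bases after the annotated 5′ end, and each motif was searched on both strands. CCAAT, the box bound by NF-Y, was found in 85% of members (51 of 60) and 38.4% of the 14286 other tested genes. All H1, H2A and H2B members had it, 11 of 12 H3 members, and 4 of 12 H4 members. TATAAA was found in 55% of members (33) and 7.83% of other genes. The octamer ATTTGCAT, bound by Oct-1 and other POU factors, was found in 25% of members (15) and 1.34% of other genes. It stood in 8 H2B promoters, always on the sense strand, and in 7 H2A promoters, always on the opposite strand. The 2 classes are often arranged head to head: 10 pairs of an H2A and an H2B member had 5′ ends 173 to 306 bases apart (median 230), which took in 20 of the 30 members of these classes, so that both genes of a pair share their promoter sequence. CCGGAAG, the core bound by the ETS factor GABP, was found in 1 member, Hist1h1e, which is 1.67% of them, against 15.7% of the other genes.

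**Figure D1:**
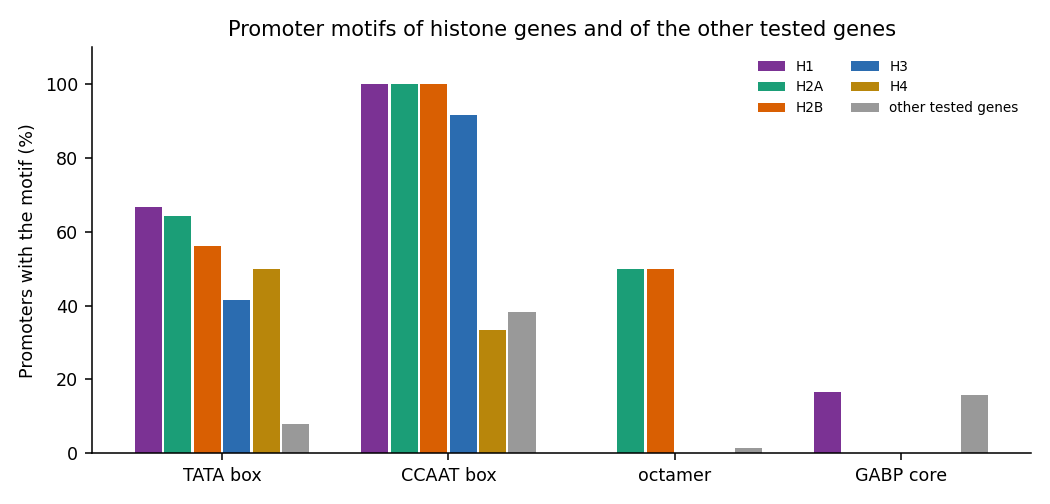
Share of promoters (%, y axis) that hold each of 4 motifs on either strand, for the 5 histone classes (coloured bars) and for the other tested genes (grey). The octamer stands in H2A and H2B promoters and in neither H1, H3 nor H4; CCAAT is in 11 of 12 H3 and in 4 of 12 H4 promoters.

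The promoters of 4 members, 300 bases each, are printed in the sense of the gene from the mm9 genome, with the TATA box, the CCAAT box and the octamer in capitals on either strand (a CCAAT of the other strand reads in reverse complement). Hist1h2bg shows the full set, Hist1h1a a highly expressed H1 gene, Hist1h4d the H4 gene with the highest level, and Hist1h1t the 1 member with a Zbtb11 window.
Hist1h2bg (chr13:23663015-23663314, plus strand): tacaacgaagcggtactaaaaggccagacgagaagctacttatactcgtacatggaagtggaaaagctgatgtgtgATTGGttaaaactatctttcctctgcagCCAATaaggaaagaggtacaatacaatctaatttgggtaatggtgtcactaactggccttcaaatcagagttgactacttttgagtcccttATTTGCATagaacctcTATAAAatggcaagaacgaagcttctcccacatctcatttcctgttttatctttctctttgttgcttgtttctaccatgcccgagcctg
Hist1h1a (chr13:23855287-23855586, plus strand): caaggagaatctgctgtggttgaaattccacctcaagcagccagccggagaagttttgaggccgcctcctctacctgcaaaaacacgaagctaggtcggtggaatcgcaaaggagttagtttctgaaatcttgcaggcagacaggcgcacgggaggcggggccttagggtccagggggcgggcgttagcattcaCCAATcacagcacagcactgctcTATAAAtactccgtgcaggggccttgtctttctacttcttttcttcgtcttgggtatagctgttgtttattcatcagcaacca
Hist1h4d (chr13:23673217-23673516, plus strand): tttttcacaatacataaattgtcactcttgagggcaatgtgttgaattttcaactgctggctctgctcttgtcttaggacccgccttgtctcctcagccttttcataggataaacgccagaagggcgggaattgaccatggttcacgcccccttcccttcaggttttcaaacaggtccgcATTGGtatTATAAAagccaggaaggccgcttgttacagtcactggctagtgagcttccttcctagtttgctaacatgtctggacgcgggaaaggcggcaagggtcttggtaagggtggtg
Hist1h1t (chr13:23787430-23787729, plus strand): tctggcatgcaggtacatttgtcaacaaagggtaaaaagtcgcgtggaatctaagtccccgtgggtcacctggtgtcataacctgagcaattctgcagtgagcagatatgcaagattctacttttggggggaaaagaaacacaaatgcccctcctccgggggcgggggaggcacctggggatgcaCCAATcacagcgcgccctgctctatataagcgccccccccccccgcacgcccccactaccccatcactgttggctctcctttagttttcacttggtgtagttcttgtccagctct

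Zbtb11 windows were rare at these promoters. The coverage table of the study holds 7500 windows of Zbtb11 binding. A window overlapped the promoter, here 2 kb upstream to 500 bases downstream of an annotated start, of 1 of the 60 members (1.67%), against 31.1% of all genes tested. That member was Hist1h1t, the linker histone of the testis, whose gene lies at chr13:23787680-23788588. Its window (chr13:23787681-23788880) was centred 600 bases downstream of the start. The normalised coverage there was 265, 337, 257 and 291 in the 4 Zbtb11 libraries (mean 287 ± 35.9, SD, n = 4), and 279, 320 and 225 in the 3 FLAG-Zbtb11 libraries (274 ± 47.9, n = 3). All 7 values lay above 71.3, the median of all windows in the Zbtb11 libraries. The window ranked 926 of 7500. With the complete peak lists of either antibody Hist1h3e was added, for 2 members (3.33%, against 36.1% of all genes for the Zbtb11 list and 36.6% for the FLAG-Zbtb11 list). With 5 kb on each side of the start there were 4 members (6.67%, against 35.4%), and none where the middle of the window had to lie in the promoter (29.3% of all genes). No FLAG control peak overlapped a member's promoter (0.265% of all genes). For ChIP the authors kept only uniquely aligned reads, so that near-identical histone copies can lose signal. A missing window is therefore not proof of missing binding, and the part of this in the low share was not tested.

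The windows in the large histone clusters lay for the most part away from the members' promoters. The cluster at chr13:23622919-24026720 spans 404 kb and held 31 members and 3 windows. The cluster at chr13:21807632-22135545 spans 328 kb and held 18 members and 2 windows, of which 1 overlapped the promoter of Zfp184, a zinc finger gene. The cluster on chr3 (chr3:96023839-96082924, 59.1 kb, 6 members) and that on chr11 (chr11:58762413-58770176, 7.76 kb, 3 members) held none. The 2 clusters on chr13 together held 5 windows in 732 kb, or 6.83 per Mb, against 2.76 per Mb over the 2717 Mb of the mm9 genome sequence. These 732 kb are dense in genes, with 49 members, beside 14346 tested genes in the 2717 Mb. The rate per Mb does not allow for this, and it rests on 5 windows. The genes whose products make histone mRNA differed from the histone genes themselves in this respect. Of 20 tested genes for histone mRNA transcription and processing, 14 (70%) had a window at the promoter. They include Slbp (mean coverage 243 ± 17.2, n = 4), Npat, the cyclin E-CDK2 target that activates histone transcription (37.7 ± 16.3), and Cpsf3, the endonuclease that cuts the 3′ end (481 ± 96.8). The Npat window was weak: it ranked 5840 of 7500 and lay below 71.3, the median of all windows. Those of Eri1 (33.1), Nfya (57.9) and Lsm10 (58.1) lay below that median too. Windows also stood at 9 of 21 histone chaperone and assembly genes (42.9%) and at 5 of 11 replication-independent variants (45.5%), beside the 31.1% of all genes.

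Histone mRNA in Zbtb11 KO cells differed from that in the EtOH control by less than the spread between cultures. Summed over the 60 members, the EtOH control libraries held 6159, 7684 and 8035 CPM, the Zbtb11 KO libraries 6851, 7208 and 8206 CPM, and the 4OHT control libraries 6592, 8303 and 8360 CPM, after scaling by the trimmed mean of M values (TMM). The first replicate was the lowest in each group, and the ranges of the 3 groups overlapped. The group means were 7293 ± 997, 7422 ± 702 and 7752 ± 1005 CPM (SD, n = 3 each). By class, H1 mRNAs summed to 2083 ± 365 CPM in the EtOH control and 2235 ± 376 in the Zbtb11 KO, H2A to 595 ± 79.3 and 608 ± 75.7, H2B to 1696 ± 276 and 1652 ± 124, H3 to 979 ± 100 and 993 ± 69.7, and H4 to 1940 ± 178 and 1934 ± 66.4. No class mean moved by more than its SD, but this SD takes in the difference between replicate numbers. By replicate number, the sum over all members was higher in the Zbtb11 KO than in the EtOH control in replicates 1 and 3. In replicate 2 it was lower. Such bulk values cannot tell fewer cells in S phase from less histone mRNA per S phase cell.

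**Figure D2:**
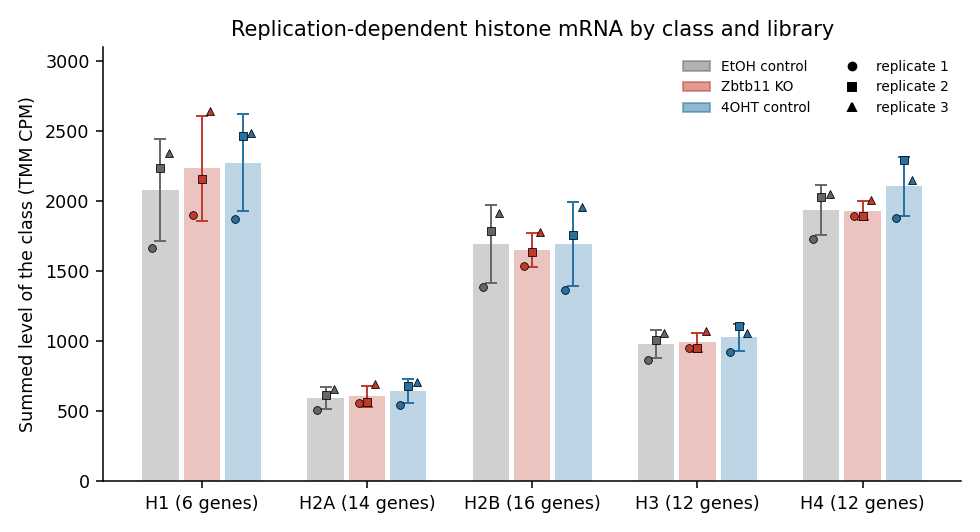
Summed level of each histone class (y axis, TMM CPM) in the 3 groups: bars are means of 3 libraries, error bars the SD, and circles, squares and triangles replicates 1, 2 and 3. The circles sit lowest in nearly every group, and the groups overlap in every class.

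Gene by gene, none of the 60 members passed in the Zbtb11 KO against the EtOH control (edgeR quasi-likelihood test over all 14346 genes, Benjamini-Hochberg adjusted p under 0.05), while 0.899% of all genes did. At an unadjusted p under 0.05 there was 1 member, Hist3h2a, against 2.8% of all genes, and DESeq2 called none. The median log2 fold change of the members was 0.0047 and that of all genes -0.00065. Of the 60, 30 were above 0 (49.7% of all genes were) and 56 within 0.25 of it on the log2 scale. By class, above 0 were 6 of 6 H1, 10 of 14 H2A, 4 of 16 H2B, 5 of 12 H3 and 5 of 12 H4 members. The class medians were 0.11, 0.03, -0.03, -0.03 and -0.0020 in that order. Each lay within the median SE of its class (0.18, 0.16, 0.17, 0.15 and 0.13). Genes of a class come from the same libraries and are not replicates, and a class difference was not tested. Without replicate 1 the H1 gene Hist1h1d was at -0.011. Over all 60 members the number above 0 was 19 without replicate 1, and 43 both without replicate 2 and with library sizes not scaled by TMM. The standard error had a median of 0.15 and reached 0.50. Taking the replicate number as a block lowered its median to 0.06 and called 1 member, against 2.25% of all genes and 0.46% in this direction: Hist1h1t rose by 0.37 (SE 0.10, adjusted p = 0.0494; 0.37, SE 0.18, without the block). Its level was 15.5, 19.1 and 22.9 CPM in the EtOH control, 20.3, 22.8 and 31.2 CPM in the Zbtb11 KO, and 20.2, 21.1 and 20.6 CPM in the 4OHT control. It was higher in the Zbtb11 KO than in the same-numbered EtOH control each time, and the groups overlap. This is the member with the Zbtb11 window. Without replicate 1 no member passed (1.47% of all genes did), and without replicate 1 but with the block 1 fell (2.28% of all genes passed, and 1.85% fell): Hist1h4n, an H4 gene named here after its values were seen, by 0.39 on the log2 scale (SE 0.08, adjusted p = 0.00434). Its level was 83.3, 85.1 and 83.7 CPM in the EtOH control and 91.8, 73.6 and 55.8 CPM in the Zbtb11 KO, above the control in replicate 1 and below it in the others.

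The highest-level gene of each class stayed near its control. Levels are compared between genes per kilobase of exon, as CPM per kb, averaged over the 9 libraries. Hist1h4d was the highest of all at 1165 CPM per kb, Hist1h1a the highest H1 gene at 667, Hist1h2bb the highest H2B at 449, Hist1h3e the highest H3 at 282 and Hist1h2ak the highest H2A at 278. Hist1h4d stood at 408, 464 and 460 CPM in the EtOH control and 436, 427 and 469 CPM in the Zbtb11 KO, a log2 fold change of -0.00086 (SE 0.08). Hist1h1a stood at 397, 482 and 551 CPM against 439, 461 and 625 CPM (0.09, SE 0.17). Hist1h2bb stood at 223, 208 and 216 CPM against 236, 197 and 205 CPM (-0.02, SE 0.09). The values of these genes interleave between the groups. Summed per length, H4 mRNAs were the most abundant class at 4661 CPM per kb, followed by H2B at 2595, H1 at 2082, H3 at 1465 and H2A at 1149. These sums depend on how reads that fit more than 1 copy were treated, which is not given in the sources used here. The ranks per kb, of genes and of classes, also depend on the annotated exon length. It is 747 bases for Hist1h1a, 1560 for Hist1h1c and 3821 for Hist1h1d. Not divided by length, Hist1h1c was above Hist1h1a. The means were 499 against 476 CPM in the EtOH control, 542 against 508 in the Zbtb11 KO and 556 against 509 in the 4OHT control.

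The members at the ends of the range were of low level. Hist3h2a, an H2A gene outside the main clusters (chr11:58768187-58770176), had the largest positive change in the Zbtb11 KO, 0.59 (SE 0.26, adjusted p = 1). It was the 1 member whose groups did not overlap, beside 3.19% of all genes that were higher without overlap. It rests on 17, 19 and 11 reads in the EtOH control and 21, 23 and 20 in the Zbtb11 KO. Before TMM scaling Hist3h2a was at most 0.901 CPM in the EtOH control, and it entered the set through 5 libraries given 4OHT, so that its place above the EtOH control is tied to the filter. The pseudogene Hist2h3c2 had the largest negative one, -0.28 (SE 0.43), on 10 to 20 and 7 to 17 reads.

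**Figure D3:**
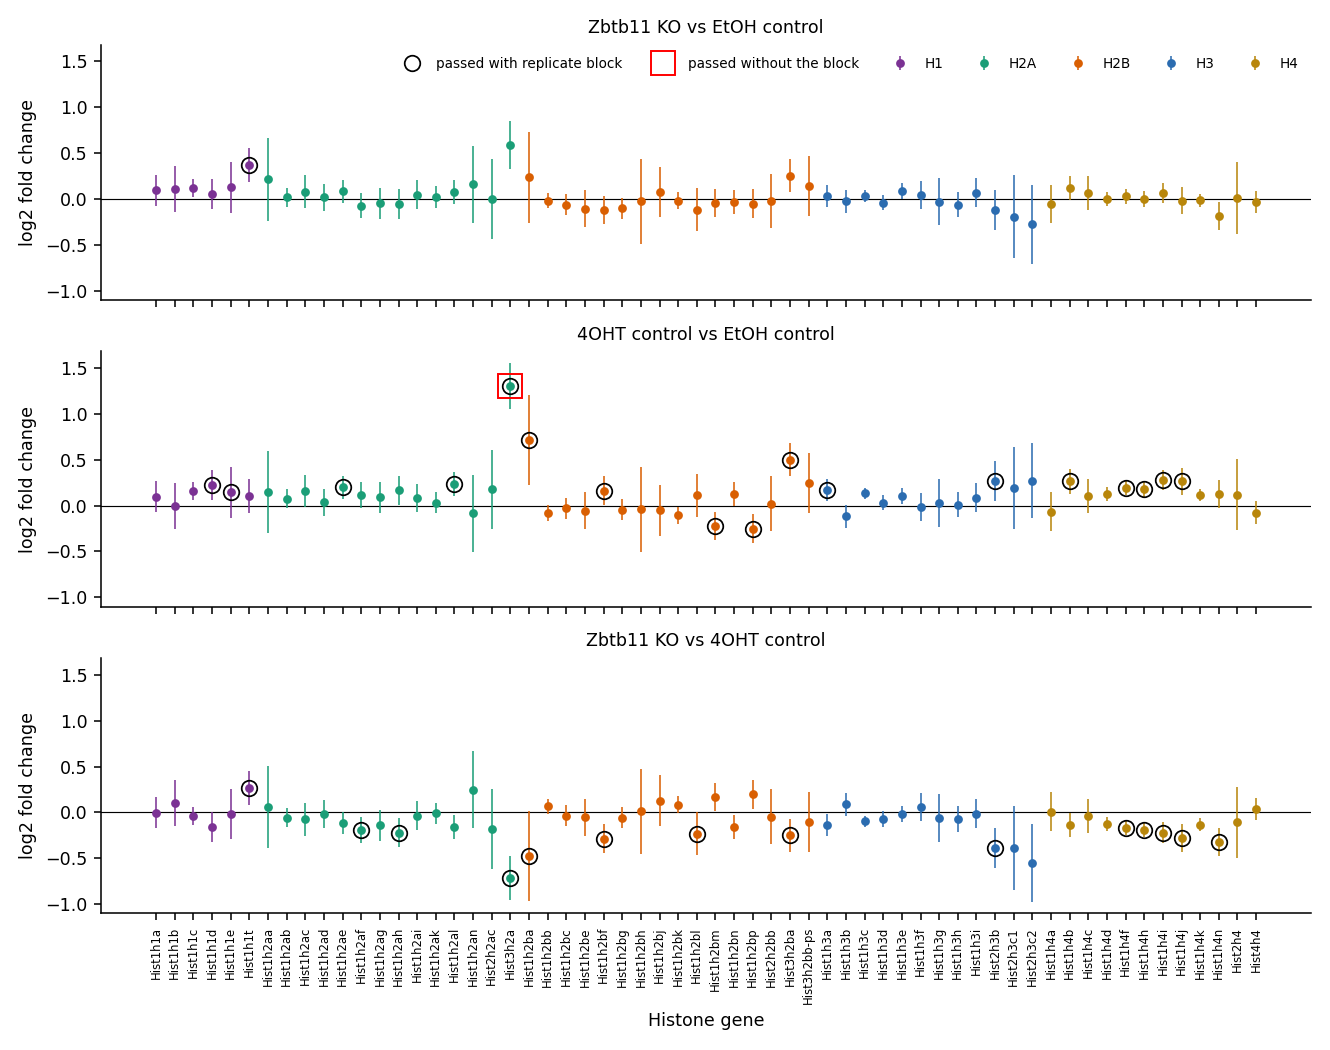
Log2 fold change (y axis) of the 60 members (x axis, coloured by class) in the 3 comparisons, with the SE as bars; circles mark genes that passed with the replicate block and squares those that passed without it. In the top panel 1 gene, Hist1h1t, is circled, and in the middle panel Hist3h2a carries a square at 1.31.

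The comparison of the 2 controls joins the effect of 4OHT with that of genotype, which cannot be told apart. In the 4OHT control against the EtOH control, 45 of 60 members were above 0 (beside 50.1% of all genes), with a median log2 fold change of 0.11 against 0.00053 for all genes. H4 had a median of 0.13, H2A 0.13, H1 0.13, H3 0.09 and H2B -0.03. Against 4.06% of all genes, 1 member passed: Hist3h2a rose by 1.31 (SE 0.25, adjusted p = 0.0241). It stood at 0.89, 0.81 and 0.51 CPM in the EtOH control, 1.22, 1.12 and 0.99 CPM in the Zbtb11 KO, and 1.65, 1.81 and 2.00 CPM in the 4OHT control, with no overlap among the 3 groups. It passed the filter through the groups in which it was high, so this call supports nothing about the members, and none of the other members passed. The call was lost without replicate 2 or replicate 3 and when only the 2 control groups were fitted. On 708 bases Hist3h2a overlaps Trim17 on the same strand, and reads that fit both genes are set apart as ambiguous.

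With the replicate block 17 members passed, or 28.3%, beside 33.6% of all genes, 15 of them higher and 2 lower, against 17% and 16.5% of all genes in each direction. Without replicate 1, 7 passed (17% of all genes did, and 8.82% in this direction), all higher: Hist1h4b, Hist1h4f, Hist1h4i, Hist1h4j, Hist3h2a, Hist3h2ba and Hist1h2ba. Hist1h2ba was named after its values were seen. Without replicate 1 but with the block 14 passed (27.4% of all genes). Of these 14, 13 were higher and 1 lower, beside 2008 higher and 1926 lower of all 14346 genes. Of the 12 H4 genes, 5 rose with the block. Hist1h4i, for one, stood at 152, 131 and 143 CPM in the EtOH control and 182, 171 and 165 CPM in the 4OHT control, with no overlap, and the blocked change was 0.28 (SE 0.06, adjusted p = 0.00116). Its Zbtb11 KO values of 167, 125 and 153 CPM spanned those of the EtOH control. Hist3h2ba, an H2B gene on the same cluster as Hist3h2a, stood at 37.9, 46.6 and 59.5 CPM in the EtOH control. Its values were 54.4, 52.8 and 64.3 CPM in the Zbtb11 KO and 56.3, 68.5 and 79.0 CPM in the 4OHT control. Its blocked change in the 4OHT control was 0.51 (SE 0.07).

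Hist1h2ba, the H2B of the testis, stood at 4.07, 8.38 and 10.5 CPM in the EtOH control and 5.90, 13.7 and 17.9 CPM in the 4OHT control. Its change was 0.71 with an SE of 0.49 without the block and 0.70 with an SE of 0.10 with it. The 2 that fell with the block were the H2B genes Hist1h2bm and Hist1h2bp. Hist1h2bp stood at 34.5, 40.9 and 49.2 CPM in the EtOH control and 28.7, 34.1 and 41.7 CPM in the 4OHT control, lower at each replicate number (-0.25, SE 0.08).

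Between the Zbtb11 KO and the 4OHT control, which were both given 4OHT but differ in genotype, no member passed, against 6.45% of all genes. At an unadjusted p under 0.05 there was 1, again Hist3h2a, against 19.2% of all genes, and DESeq2 called none. The median log2 fold change was -0.07, with 14 of 60 above 0 (50.2% of all genes). Both values rest on replicate 2: without it 29 of 60 were above 0 and the median was -0.0048, while without replicate 1 there were 10 and the median was -0.16. With the block 14 members passed (23.3%, against 34.9% of all genes), Hist1h1t higher and 13 lower, against 16.9% and 18.1% of all genes in each direction. Without replicate 1 there were 8, all lower (18.5% of all genes passed, and 10.1% were lower). Without replicate 1 but with the block there were 24 (29.2% of all genes). Of these 24, 23 were lower and 1 higher, beside 2234 lower and 1951 higher of all 14346 genes. In the blocked fit of all 9 libraries Hist1h1t was 0.26 higher (SE 0.10, adjusted p = 0.0443). The 13 lower ones were 5 H4 genes (Hist1h4f, Hist1h4h, Hist1h4i, Hist1h4j and Hist1h4n), 4 H2B genes (Hist1h2ba, Hist1h2bf, Hist1h2bl and Hist3h2ba), 3 H2A genes (Hist1h2af, Hist1h2ah and Hist3h2a) and the H3 gene Hist2h3b. Hist2h3b, named after its values were seen, had the smallest adjusted p of them, with a blocked change of -0.39 (SE 0.07, adjusted p = 0.00023), and it passed without replicate 1 as well (-0.44, SE 0.07, adjusted p = 0.00174). It stood at 52.5, 64.4 and 70.3 CPM in the Zbtb11 KO, 64.2, 93.7 and 87.7 CPM in the 4OHT control and 46.8, 76.1 and 80.6 CPM in the EtOH control, lower in the Zbtb11 KO than in the 4OHT control at each replicate number, while its values in the EtOH control span those of the Zbtb11 KO. Hist1h2bf had a blocked change of -0.28 (SE 0.06, adjusted p = 0.00154) and Hist1h4j one of -0.28 (SE 0.07, adjusted p = 0.00567). This comparison shares its Zbtb11 KO libraries with the first and its 4OHT control libraries with the second, and both controls differ from each other at these genes. For Hist1h4j the values were 41.4, 49.8 and 54.9 CPM in the EtOH control, 46.1, 47.3 and 50.9 CPM in the Zbtb11 KO, and 45.7, 65.7 and 63.8 CPM in the 4OHT control.

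Between replicate numbers the histone genes differed by more than between the Zbtb11 KO and the EtOH control. Replicate 1 had the lowest level of the 3 replicates in all 3 groups for 34 of the 60 members (56.7%), against 29.4% of all genes tested, and the highest for 4 members (6.67%), against 30% of all genes. The median over members of the log2 difference between replicate 1 and the mean of replicates 2 and 3 was -0.28, and that of all genes 0.01. All 6 H1 genes were lowest in replicate 1 in every group, with a median difference of -0.35. H2B had -0.32, H2A -0.29, H3 -0.25 and H4 -0.17. In all, 6 members were below by a factor of more than 2: Hist1h2bh (-1.25 on the log2 scale), Hist1h2ba (-1.22), Hist2h2ac (-1.14), Hist1h2aa (-1.08), Hist2h4 (-1.02) and Hist1h2an (-1.0032), named here after their values were seen. Hist1h2bh stood at 39.8, 91.7 and 106 CPM in the EtOH control, 46.1, 85.8 and 101 CPM in the Zbtb11 KO, and 35.4, 89.7 and 105 CPM in the 4OHT control. The 4 that were highest in replicate 1 were Hist1h2bb, Hist1h2bg, Hist1h4i and Hist2h3c2. Hist2h3c2 exceeded 1 CPM in the 3 replicate 1 libraries and in no other, so that the filter fixed its place, and 3 of the 59 others remain.

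**Figure D4:**
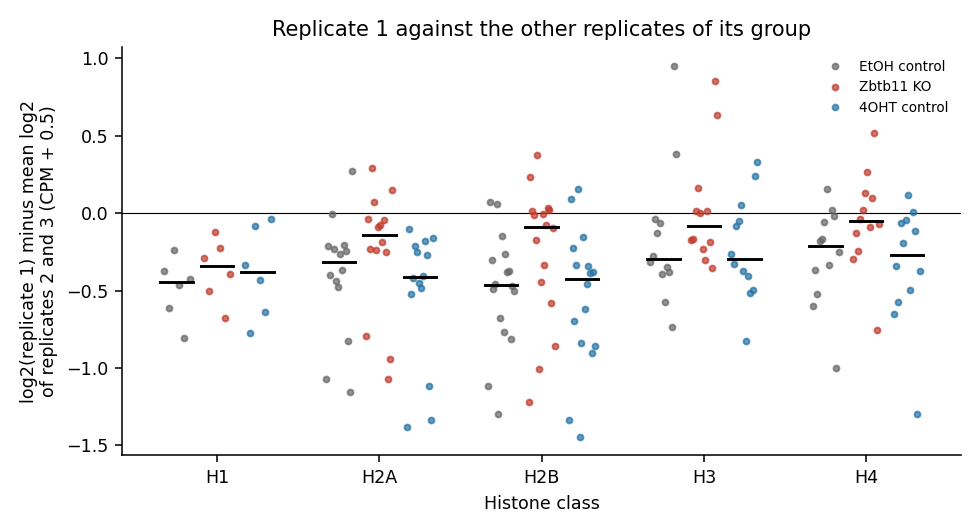
Log2 level in replicate 1 minus the mean log2 level of replicates 2 and 3 (y axis, CPM + 0.5) for each member, by class (x axis) and group (colours), with black bars at the medians. The medians lie below 0 in every class and group, and all H1 points do.

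Other measures moved with replicate 1 too. Its libraries had 14301457 to 18872759 reads on genes, against 20172766 to 23876604 in the other replicates. The summed level of 13 differentiated cell markers was 97.5 to 102 CPM in replicate 1 and 126 to 162 CPM in the others. Tubb3, a neuronal tubulin, carried this sum, with 60.3 to 73.0 CPM in replicate 1 and 102 to 114 CPM in the others, and without it the sums overlapped (27.1 to 37.5 and 21.7 to 51.9 CPM). In every group replicate 1 was the lowest for 4 of the 13 (Tubb3, Pax6, Acta2 and Fgf5) and the highest for 3 (Gata4, Gata6 and Col1a1). Gata6, an endoderm factor, stood at 1.75 to 3.43 CPM in replicate 1 and 1.12 to 1.55 CPM in the others. The 9 ES cell markers summed to 4421 to 5341 CPM over all 9 libraries. A list of 41 S phase and DNA replication genes summed to 6217 to 6481 CPM in replicate 1 and to 6293 to 7063 CPM in the others. For histone mRNA transcription and processing genes the sums were 1688 to 1724 CPM in replicate 1 and 1828 to 1958 CPM in the others. Those of histone chaperone and assembly genes were 3594 to 3885 and 4220 to 4602 CPM, without overlap as well. Sums of the replication-independent variants overlapped when the groups were pooled, at 1922 to 2091 and 2015 to 2318 CPM. Within each group, however, replicate 1 had the lowest sum of these variants, and also of the S phase genes. The part of these measures in the low histone values was not tested.

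Genes for histone production, chosen for their known roles, were read in the same fit. None of 20 tested genes for histone mRNA transcription and processing passed against the EtOH control, with or without the block. Slbp stood at 74.5, 87.0 and 87.7 CPM in the EtOH control and 74.1, 87.2 and 87.9 CPM in the Zbtb11 KO, a log2 fold change of -0.00028 (SE 0.11). Npat stood at 106, 97.1 and 102 CPM against 97.2, 95.3 and 88.5 CPM (-0.12, SE 0.07, adjusted p = 1). None of 41 S phase and DNA replication genes and none of 11 replication-independent histone variants passed either way. Of all genes 0.899% passed without the block and 2.25% with it, so lists this short would hold few calls or none. Of 21 chaperone and assembly genes, 1 passed with the block, Hira, named after its values were seen, which encodes a chaperone that places the variant H3.3 outside replication. It stood at 67.4, 107 and 111 CPM in the EtOH control, 38.7, 61.4 and 66.4 CPM in the Zbtb11 KO and 97.7, 125 and 137 CPM in the 4OHT control, lowest in the Zbtb11 KO at each replicate number. The blocked change against the EtOH control was -0.78 (SE 0.06, adjusted p = 1.93e-08), and without the block it was -0.78 (SE 0.24, adjusted p = 0.731). Against the 4OHT control it passed without the block as well (-1.11, SE 0.25, adjusted p = 0.0298). Its promoter window had a Zbtb11 coverage of 692, 1032, 692 and 1135 (mean 888 ± 230, n = 4) and ranked 47 of 7500.

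In the control comparison these lists moved both ways. Acta2, a smooth muscle actin among the differentiated cell markers, also set the lines apart, at 0.618 to 1.55 CPM in the 4OHT control, 7.46 to 18.9 CPM in the EtOH control and 8.68 to 17.7 CPM in the Zbtb11 KO, and its part in the differences between the controls was not tested. With the block, 3 of the 41 S phase genes were higher in the 4OHT control than in the EtOH control and 16 were lower, against 17% and 16.5% of all genes, and Slbp was 0.18 lower (SE 0.05). Of the replication-independent variants 5 were higher, H2afx among them (0.24, SE 0.06), and 1 was lower.

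Reads from near-identical copies are hard to assign to 1 gene. For each gene, the share of 75-base stretches of exon that occur once in the mm9 genome was counted, 75 bases being the read length. The 60 members had a median of 61.1%, from 8.71% in Hist1h4n to 100% in 7 members, and 39 had at least 50%. H1 genes were the most distinct, with a median of 98.6%, and H3 genes the least, with 43.1%. Of the 10 histone genes left out, 6 had no such stretch at all (Hist1h2ao, Hist1h2ap, Hist1h2bq, Hist1h2br, Hist2h2aa1 and Hist2h2aa2) and drew 0 to 18 reads per library, which says nothing about their expression. Hist2h2be, with every stretch unique, drew 8 to 19 reads, and Hist2h2ab drew none in any library although 89.7% of its stretches are unique. Just inside the filter were Hist2h3c2 and Hist3h2a, which had 3 libraries at or above 1.01 and 1.68 CPM, and just outside it was Hist2h2be, with 3 at or above 0.822 CPM. Among the members themselves the share of unique stretches and the level per kb had a rank correlation of 0.05 (n = 60 genes of the same 9 libraries), a description only. Reads were paired, so a pair can be placed where a single stretch cannot.

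**Figure D5:**
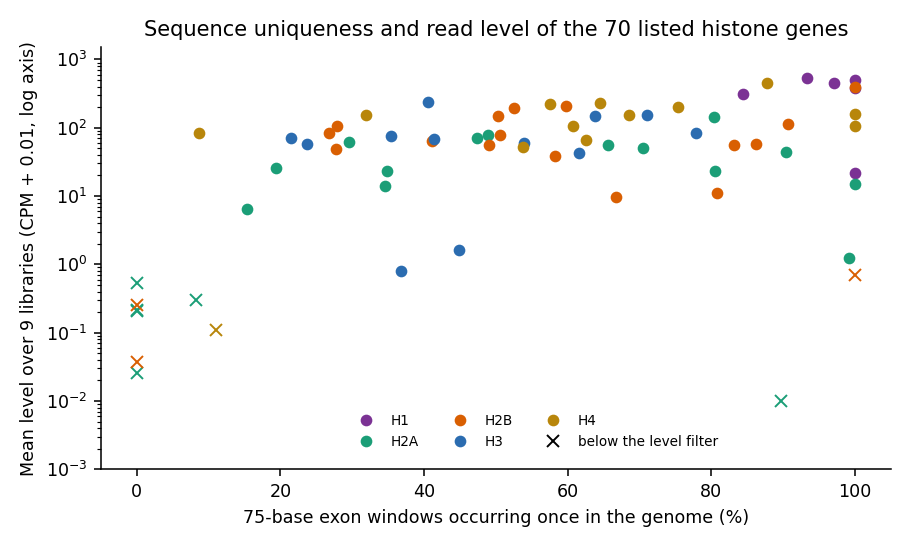
Mean level over the 9 libraries (y axis, CPM + 0.01, log axis) against the share of 75-base exon stretches that occur once in the genome (x axis, %), for the 70 listed histone genes, coloured by class; crosses are genes below the level filter. The 6 genes at 0% lie below 1 CPM, and the members are spread from 8.71% to 100%.

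As for the libraries, 14301457 to 23876604 reads were counted on genes, and the members drew 6260 to 8204 reads per 1000000. ES cell markers were present in all libraries. Zbtb11 has no gene of its own in this annotation, where its transcript is counted under Rpl24, a ribosomal protein gene with 355 to 386 CPM in every library, so that the deletion could not be checked from these counts.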

How the data were processed

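RNA-seq was measured in 9 libraries and ChIP-seq in 9. For the RNA files the authors trimmed and filtered reads, ran a transcriptome alignment with STAR, followed by per-gene counting in HTSeq, and the deposited values are raw counts per GENCODE vM1 gene. For ChIP the authors aligned to mm9 with Bowtie 1.1.2, called peaks with MACS2 on replicates (irreproducible discovery rate) and deposited peak lists and a table of normalised coverage (signal) made with DiffBind. Reads over more than 1 gene were set apart as ambiguous (0.790% to 0.905%). The files list no read as placed at several loci, and how such reads were treated before counting is not given in the sources used here, which bears on near-identical histone copies.

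Counts were scaled by TMM and tested with edgeR 4.0.16 (quasi-likelihood F test, all 9 libraries in 1 fit, R 4.3.3), adjusting p-values by Benjamini-Hochberg over the 14346 genes above 1 CPM in at least 3 libraries. DESeq2 1.42.0 was an alternative. Between 25.3% and 31.6% of the counted rows fell on no gene and were left out of library sizes. Coordinates and sequences are from mm9 (NCBIM37), and all 37310 identifiers had a symbol.

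The labels number the replicates in each group. Same-numbered libraries deviated together (correlation of their deviations from the group means 0.430 to 0.820 over all genes, and -0.753 to 0.526 for different numbers), so the number was taken to pair them. The biological coefficient of variation was 17.4% without the block, 5.33% with it and 6.80% without replicate 1.

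Genes named in full were those that passed in a knockout comparison in the fit without the block (no member did), the 10 with the smallest adjusted p between the controls, the highest of each class per length, those with a Zbtb11 window, those with the largest change each way and those lacking a stem-loop. The members and gene lists were chosen with earlier results of these data known. Coverage, with 4 and 3 libraries, was described without a test, and inputs were not analysed here. SDs and SEs measure the spread between libraries.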

Additional observations from a re-analysis of the deposited data

How the results depend on the processing

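In the Zbtb11 KO against the EtOH control the number of members that passed was 0 in the fit reported and under every alternative tried except 2: with the replicate block it was 1, higher, and without replicate 1 with the block it was 1, lower. Of all genes 2.25% and 2.28% passed in these 2 fits. Leaving out each replicate in turn gave 0 to 0 members there, 0 to 7 for the 4OHT control against the EtOH control and 0 to 8 for the Zbtb11 KO against the 4OHT control. Of all 14346 genes, 13 to 211, 13 to 2440 and 85 to 2648 passed in that order. For the 4OHT control against the EtOH control the count of 1 became 17 with the replicate block, 14 without replicate 1 with the block, and 0 with only the 2 groups compared. The share of all genes went from 4.06% to 33.6% and 27.4% in the first 2 of these, and 175 of 14346 passed in the last. For the Zbtb11 KO against the 4OHT control the count of 0 became 14 with the block and 24 without replicate 1 with the block. There the share of all genes went from 6.45% to 34.9% and 29.2%. The cause was not tested. The median log2 fold change of members ranged from 0.11 to 0.12 between the controls. Between the Zbtb11 KO and the 4OHT control it ranged from -0.16 to -0.0048, the value nearest 0 being that without replicate 2. For the Zbtb11 KO against the EtOH control it ranged from -0.047 to 0.071, so that its sign depends on the setting. Library sizes without TMM raised the median of all genes in that comparison to 0.036 and that of the members to 0.045. Members with a window at the promoter numbered 4 with 5 kb on each side, 2 with all Zbtb11 peaks, 2 with all FLAG-Zbtb11 peaks and 0 where the middle of the window had to lie in the promoter. The coverage of the Hist1h1t window ranged from 271 to 297 when each Zbtb11 library was left out. A single read of 75 bases cannot be placed on copies that share every such stretch, although a pair of reads sometimes can. Genes under about 20 reads a library could show only large changes.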
